A study of Mus musculus with 6 samples.

Results

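The Frizzled receptors are the cell-surface receptors for Wnt ligands, and mouse has 10 genes of this family, Fzd1 to Fzd10. All 10 were found by gene symbol among the 36172 genes of the deposited table, and they were followed in 6 RNA-seq libraries from cultures of mouse intestinal tumor cells. The cultures were organoids, which are balls or tubes of epithelial cells grown in a gel, and were prepared from small intestinal tumors of C57BL/6 mice aged 15 to 20 weeks. Every organoid carried the Apc(D716) truncation, which ends the Apc protein at codon 716. The authors report that tumor cells of this mutant lose the wild-type Apc allele, which was not examined in these libraries. The p53(+/+) organoids kept both normal Trp53 alleles. The p53(flox/flox) organoids carried, on both alleles, a mutant Trp53 gene blocked by a removable stop cassette, so they were functionally Trp53-null. In the p53(M/M) organoids that cassette had been removed by a tamoxifen-activated Cre recombinase under the villin promoter, which is active in intestinal epithelium, so both alleles encoded the missense protein p53 R270H. Each of the 3 genotypes had 2 libraries, and the p-values below rest on the spread between such pairs. Whether the 2 libraries came from separate mice, tumors or organoid lines is not stated in the sources used here. An effect of genotype therefore cannot be told apart from a difference between organoid lines. The comparisons ask which receptors are present in each genotype, and which differ between organoids with normal, absent or missense p53.

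A Frizzled receptor crosses the membrane 7 times and binds the Wnt ligand through a cysteine-rich domain outside the cell. Together with the co-receptors Lrp5 and Lrp6 it recruits Dishevelled, which halts the destruction of beta-catenin, whereas the planar cell polarity branch acts through Dishevelled without beta-catenin. Apc belongs to the destruction complex itself, so in Apc-deficient cells beta-catenin is active without any signal from the receptors. In the intestine Fzd7 is known as a receptor of stem cells and Fzd5 as a receptor needed for the maturation of Paneth cells, the antimicrobial cells at the crypt base.

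The short coding stretch below is shown because it encodes the contact with Dishevelled that the family shares. It spells lysine, threonine, any 3 residues and tryptophan (the KTxxxW motif) just inside the membrane. In the GENCODE coding sequences (GRCm38, the same assembly as mm10) the motif was found exactly 1 time in each of the 10 receptors, and in 2.11% of 21562 mouse genes with a complete coding sequence. The capitals mark the 18 bases of the motif, with 6 bases on either side, for the 4 receptors that could be tested and for Fzd9, whose coding sequence is the closest to that of Fzd10 (71.6% identical bases).
Fzd10: acttccAAGACCCTGCAGTCCTGGcaacac
Fzd9: agttccAAGACTTTTCAGACTTGGcagagc
Fzd7: tcgggcAAGACCCTGCAGTCATGGcgtcgc
Fzd5: tccggcAAGACTCTGGAGTCTTGGcggcgg
Fzd6: agcaaaAAGACGTGCACAGAATGGgccggg
The Fzd10 stretch lies at chr5:128602790-128602819 on the plus strand and begins the motif at codon 527. The Fzd9 stretch is at chr5:135249410-135249439 (minus strand), that of Fzd7 at chr1:59484601-59484630 (plus), that of Fzd5 at chr1:64735005-64735034 (minus) and that of Fzd6 at chr15:39033943-39033972 (plus). Against the 18 bases of Fzd10, those of Fzd7 differ at 1 base, those of Fzd5 at 3, those of Fzd9 at 5 and those of Fzd6 at 10. The tail that follows the motif is 17 codons long in Fzd7, 50 in Fzd10, 55 in Fzd5 and 206 in Fzd6. Despite the likeness of the receptors, no 50-base window of any Frizzled transcript occurred in the transcript of another member, so reads of that length would not be shared within the family. In Fzd3 and Fzd4, 12 and 8 such windows occurred in transcripts of genes outside the family, and in the other 8 members 0 did.

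Values are in rpkm (read numbers scaled to transcript length in kilobases and to the mapped reads of the library), which allows levels of different receptors to be set side by side. No value of the table lies below 1 rpkm, and a gene listed at 1 is called here at the floor. Trp53, the targeted gene, was at 75.1 ± 1.10 rpkm (SD, n = 2) in p53(+/+), at 2.11 ± 0.529 in p53(flox/flox) and at 77.7 ± 7.002 in p53(M/M), and the p53 targets Cdkn1a and Mdm2 were lower in all 4 mutant libraries than in both p53(+/+) libraries. The epithelial identity was clear, since all 9 epithelial markers examined were above the floor in all 6 libraries while 5 of 6 immune markers, Ptprc among them, were at the floor in all of them. The exception was the macrophage marker Cd68, at 10.2 and 9.87 rpkm in p53(+/+), 2.06 and 11.1 rpkm in p53(flox/flox), and 2.22 and 2.41 rpkm in p53(M/M). The libraries of p53(flox/flox) stood apart from each other. The median SD between paired libraries on the log2 scale was 0.247 in that genotype, against 0.0463 in p53(+/+) and 0.0621 in p53(M/M). For 4 libraries the depth was estimated from the steps of 1 read in 11 to 15 short genes, at 44.3 to 47.3 M reads. This estimate is rough, with a fit score of 0.599 to 0.782 where 1 would be exact. The gene lengths used may also differ from those behind the deposited values. At such a depth 1 rpkm would stand for about 144 to 154 reads of the Fzd10 transcript. The floor would then hide levels that the sequencing itself could have measured. The depth of p53(+/+) replicate 1 and of p53(flox/flox) replicate 1 could not be settled.

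In p53(+/+) organoids 3 receptors made up most of the Frizzled mRNA. Fzd7 was highest at 14.8 and 15.0 rpkm, followed by Fzd6 at 11.5 and 11.03 rpkm and by Fzd5 at 4.74 and 4.91 rpkm. The libraries of these 3 receptors did not overlap. Below them Fzd10 (2.88 and 2.66 rpkm) and Fzd4 (2.93 and 2.58 rpkm) overlapped and were not told apart, then came Fzd3 (2.15 and 1.74 rpkm) and Fzd1 (1.35 and 1.49 rpkm). Fzd2, Fzd8 and Fzd9 were at the floor in both libraries. In p53(M/M) organoids Fzd10 headed the order, above Fzd6 and Fzd7, whose libraries overlapped each other, and above Fzd5. In p53(flox/flox) Fzd7 was again highest, and the ranges of Fzd6 (6.67 to 13.6 rpkm) and Fzd5 (4.17 to 6.45 rpkm) came next without overlapping.

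**Figure D1:**
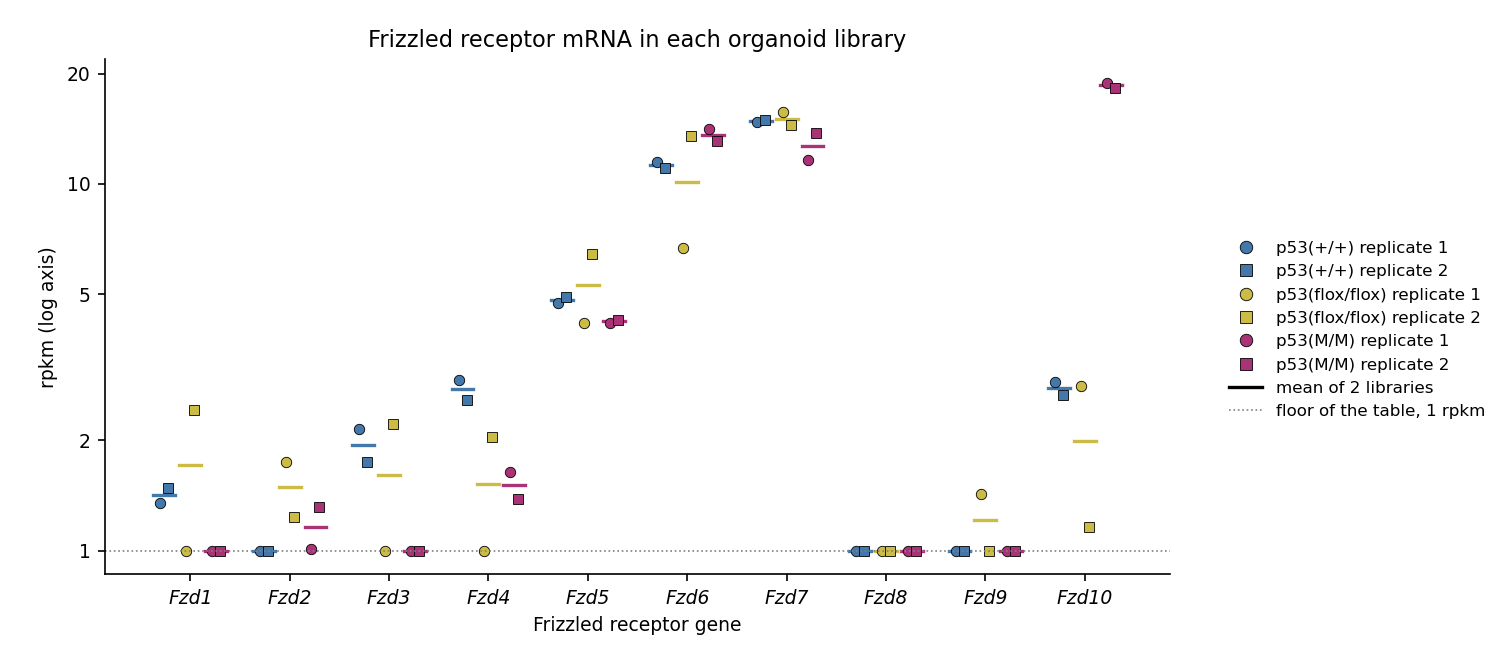
Level of each Frizzled gene (horizontal axis) in rpkm on a log axis, with 1 point per library, a line at the mean of the 2 libraries of a genotype and a dotted line at the floor of 1 rpkm. The points of Fzd10 in p53(M/M) lie at 18.9 and 18.3 rpkm, above all other points of the family.

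Fzd10 was higher in p53(M/M) organoids than in both other genotypes. This single-exon gene at chr5:128600844-128604093 (plus strand, ENSMUSG00000081683) encodes a receptor of the Fzd4, Fzd9 and Fzd10 branch. Its level was 2.88 and 2.66 rpkm in p53(+/+), 2.82 and 1.16 rpkm in p53(flox/flox), and 18.9 and 18.3 rpkm in p53(M/M). Both p53(M/M) libraries were therefore far above all 4 others, and the p53(+/+) and p53(flox/flox) ranges overlapped. The mean of 18.6 ± 0.423 rpkm in p53(M/M) was 6.70 times that of p53(+/+) (2.77 ± 0.155) and 9.34 times that of p53(flox/flox) (1.99 ± 1.17; SD, n = 2 each). In limma on log2(rpkm + 1) across the 10042 genes that reached 4 rpkm in at least 1 library, Fzd10 was higher in p53(M/M) than in p53(+/+) by 2.38 ± 0.28 (SE; 95% interval 1.67 to 3.08; adjusted p = 0.0110). Against p53(flox/flox) it was higher by 2.77 ± 0.28 (95% interval 2.06 to 3.48; adjusted p = 0.00573). These log2 differences understate the change, because 1 was added to values as low as 1.16. Between p53(flox/flox) and p53(+/+) the difference was -0.39 ± 0.28 (95% interval -1.10 to 0.32; adjusted p = 0.349), which did not pass. The p53(M/M) libraries are shared by the first 2 comparisons, so these are not independent of each other. Fzd10 reached 4 rpkm only in p53(M/M), so it entered the test only through the genotype in which it is high. Its calls in these 2 comparisons therefore carry no weight of their own.

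The call of Fzd10 depended on how the spread was estimated. A changed filter, variance model, set of genotypes or block alters only the spread or the genes tested, so it could not move the difference. That difference to p53(+/+) was 2.33 or more under every alternative tried. Over these alternatives its adjusted p ran from 3.91e-06 to 0.148 against p53(+/+) and from 0.000103 to 0.0924 against p53(flox/flox). When 1 library of p53(+/+) or p53(M/M) was left out, the lone library was assumed to vary like the other genotypes, p53(flox/flox) included. The log2 difference to p53(+/+) was then 2.33 to 2.42, and the adjusted p was 0.111 without p53(+/+) replicate 1, 0.131 without p53(+/+) replicate 2, 0.148 without p53(M/M) replicate 1 and 0.121 without p53(M/M) replicate 2. With p53(M/M) and p53(+/+) fitted alone it was 0.000145, and with no filter on low values it was 0.0749. Against p53(flox/flox) the call was lost without p53(M/M) replicate 1 (adjusted p = 0.0924) or replicate 2 (0.0702).

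Of the 10 receptors, 4 reached 4 rpkm in some library and were tested (Fzd5, Fzd6, Fzd7 and Fzd10). Fzd10 passed the filter only through its p53(M/M) libraries, so its calls below carry no weight of their own. Between p53(M/M) and p53(+/+) 1 of the 4 was called, a rise, where 12.2% of all genes tested were called in either direction, 5.86% higher and 6.36% lower. Between p53(M/M) and p53(flox/flox) 1 of the 4 was called, again Fzd10, where 24.6% of all genes were called, 13.6% higher and 11% lower. Between p53(flox/flox) and p53(+/+) 0 of the 4 were called by limma, where 11.3% of all genes were called, 4.38% higher and 6.9% lower. In this last comparison 0 of the 4 were also under 0.05 before adjustment, where 3489 of the 10042 genes were. The lowest limma p of the 4 was that of Fzd10 (0.216). The number called moved when libraries were left out.

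**Figure D2:**
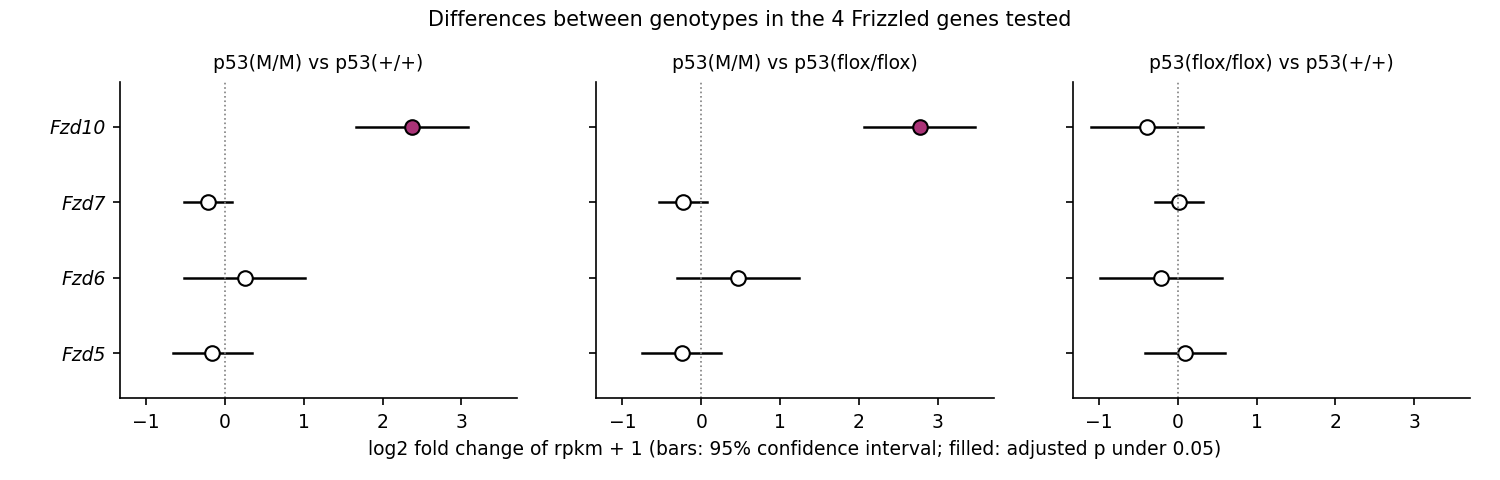
Log2 fold change of rpkm + 1 (horizontal axis) for the 4 tested Frizzled genes (vertical axis), 1 panel per comparison, with bars for the 95% confidence interval and filled points for an adjusted p under 0.05. The points of Fzd10 in both p53(M/M) comparisons, at 2.38 and 2.77, are filled, and the intervals of all open points cross 0.

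Fzd7 lay between 11.6 and 15.7 rpkm in all libraries. It measured 14.8 and 15.0 rpkm in p53(+/+), 15.7 and 14.5 rpkm in p53(flox/flox), and 11.6 and 13.8 rpkm in p53(M/M). Both p53(M/M) libraries lay below the other 4. The log2 difference of p53(M/M) to p53(+/+) was -0.22 ± 0.12 (95% interval -0.52 to 0.09; adjusted p = 0.285), and that to p53(flox/flox) was -0.23 ± 0.12 (adjusted p = 0.197). Between p53(flox/flox) and p53(+/+) it was 0.02 ± 0.12, with an interval from -0.29 to 0.32. Where each genotype was given a weight of its own, the difference to p53(+/+) was called by limma (adjusted p = 0.0436), in a fit that called 5987 of the 10042 genes. The stem cell marker Lgr5, a receptor for R-spondin, was at 17.2 and 10.8 rpkm in p53(+/+), 14.3 and 17.6 in p53(flox/flox), and 10.1 and 12.4 in p53(M/M), and was not called. Of the 6 stem cell markers examined, 1 was called higher in p53(M/M) than in p53(+/+) and 0 lower. Of all genes tested, 5.86% were called higher and 6.36% lower. The marker called by limma was Olfm4 (log2 difference 2.49, adjusted p = 0.0199). Ascl2 (-0.95, adjusted p = 0.0512) and Msi1 (0.94, adjusted p = 0.0575) narrowly did not pass, in opposite directions. Smoc2 (1.07, adjusted p = 0.0901) did not pass either. Against p53(flox/flox) Olfm4 was again higher in p53(M/M) (1.95, adjusted p = 0.0242) and Ascl2 lower (-1.72, adjusted p = 0.00984), where 13.6% and 11% of all genes were called higher and lower. Olfm4, Ascl2, Msi1 and Smoc2 were named after their values were seen, and Olfm4 reached 4 rpkm only in p53(M/M), through which it entered the test.

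Fzd6, which like Fzd3 is known for planar cell polarity, differed widely between the p53(flox/flox) libraries. Its values were 11.5 and 11.03 rpkm in p53(+/+), 6.67 and 13.6 rpkm in p53(flox/flox), and 14.1 and 13.1 rpkm in p53(M/M). The p53(M/M) libraries were both above p53(+/+), and p53(flox/flox) spanned the p53(+/+) range. The log2 difference of p53(M/M) to p53(+/+) was 0.25 ± 0.30 (95% interval -0.52 to 1.02; adjusted p = 0.616). This call turned on the p53(flox/flox) libraries, which enter only through the shared spread. With p53(M/M) and p53(+/+) fitted alone the difference of 0.25 was called by limma (adjusted p = 0.0308), in a fit that called 5721 of the 10042 genes. It was also called with either p53(flox/flox) library left out, where calls over all genes were similarly frequent.

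Fzd5 was the lowest of the 3 receptors that exceeded 4 rpkm in every library. It measured 4.74 and 4.91 rpkm in p53(+/+), 4.17 and 6.45 rpkm in p53(flox/flox), and 4.19 and 4.27 rpkm in p53(M/M). The p53(M/M) values were below both p53(+/+) values and inside the p53(flox/flox) range. The log2 difference of p53(M/M) to p53(+/+) was -0.16 ± 0.20 (95% interval -0.66 to 0.35; adjusted p = 0.635). The 8 Paneth cell markers examined summed to 1646 to 2033 rpkm in p53(+/+), 618 to 734 in p53(flox/flox) and 799 to 840 in p53(M/M). In p53(M/M) against p53(+/+) 6 of these 8 were called lower and 1 higher, where 6.36% of all genes were called lower and 5.86% higher. Bulk libraries cannot tell fewer cells of a type from less RNA per cell, and the part of the Paneth cell markers in the level of Fzd5 was not tested.

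Within p53(flox/flox) the 2 libraries gave opposite pictures of several receptors. Replicate 2 was higher than replicate 1 for Fzd1, Fzd3, Fzd4, Fzd5 and Fzd6, and lower for Fzd2, Fzd7, Fzd9 and Fzd10. A lone p53(flox/flox) library has no spread of its own, so only differences are given for it here. With replicate 2 as the only p53(flox/flox) library, the log2 difference to p53(+/+) was -0.80 for Fzd10 and 0.35 for Fzd5. With replicate 1 as the only one, it was -0.68 for Fzd6 and 0.02 for Fzd10. The difference of p53(M/M) to p53(flox/flox) was -0.51 for Fzd5 with replicate 2 alone, and 0.93 for Fzd6 with replicate 1 alone. The libraries also differed by chromosome. In replicate 1 the 657 tested genes of chromosome 5, which carries Fzd1, Fzd9 and Fzd10, stood 0.303 above the median of all genes on the log2 scale, each gene set against its mean in the other 5 libraries. In the other 5 libraries that value was between -0.101 and -0.0376. Of the 3 receptors on that chromosome, Fzd9 was above the floor in p53(flox/flox) replicate 1 (1.43 rpkm) and in no other library, Fzd10 was 2.82 rpkm there, and Fzd1 was at the floor. The part of the chromosome-wide shift in these values was not tested.

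The remaining 6 receptors stayed below 4 rpkm in every library and were described without a test. Fzd8, the closest relative of Fzd5 (76.3% identical coding bases), was at the floor in all 6 libraries. Fzd2 was at the floor in both p53(+/+) libraries, at 1.74 and 1.24 rpkm in p53(flox/flox), and at 1.01 and 1.32 rpkm in p53(M/M). Fzd1, which shares 82.0% of its aligned coding bases with Fzd2, had another pattern, with 1.35 and 1.49 rpkm in p53(+/+), the floor and 2.42 rpkm in p53(flox/flox), and the floor in both p53(M/M) libraries. Fzd3 was at 2.15 and 1.74 rpkm in p53(+/+), at the floor and 2.22 rpkm in p53(flox/flox), and at the floor in both p53(M/M) libraries. Fzd4, the receptor for Norrin, was at 2.93 and 2.58 rpkm in p53(+/+), at the floor and 2.05 rpkm in p53(flox/flox), and at 1.64 and 1.39 rpkm in p53(M/M). Fzd1, Fzd3 and Fzd4 were thus above the floor in both p53(+/+) libraries and in p53(flox/flox) replicate 2, at the floor in p53(flox/flox) replicate 1, and at the floor or lower than in p53(+/+) in p53(M/M). When the filter was lowered to 1.5 rpkm so that Fzd1 to Fzd4 could enter the test, 0 of these 4 were called by limma in any comparison. At that filter 1809 of 11812 genes were called between p53(M/M) and p53(+/+), 1414 between p53(flox/flox) and p53(+/+), and 3026 between p53(M/M) and p53(flox/flox). The lowest adjusted p was that of Fzd4 between p53(flox/flox) and p53(+/+), 0.124 for a log2 difference of -0.60, and its unadjusted p was 0.0374. Against p53(+/+) in p53(M/M) Fzd4 differed by -0.58 (unadjusted p = 0.0426, adjusted p = 0.135).

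Of the endothelial markers, Tek, Cdh5 and Vwf were at their highest in libraries where Fzd1, Fzd3 and Fzd4 were above the floor. Fzd2 and Fzd9 did not share this pattern, since both were above the floor in p53(flox/flox) replicate 1 and at the floor in p53(+/+). Of 5 endothelial markers, 3 were above the floor in both p53(+/+) libraries and in p53(flox/flox) replicate 2, 0 in p53(flox/flox) replicate 1, and 2 and 1 in p53(M/M). Their summed level was 21.6 to 23.0 rpkm in p53(+/+), 5 and 27.7 rpkm in p53(flox/flox), and 5.13 to 5.20 rpkm in p53(M/M), where 5 is the sum of 5 genes at the floor. The angiopoietin receptor gene Tek reached 4.003 and 3.94 rpkm in p53(+/+) and 21.4 rpkm in p53(flox/flox) replicate 2. Cdh5 and Vwf were instead highest in p53(+/+). Cdh5 was at 8.88 and 9.35 rpkm there and at 3.30 rpkm in p53(flox/flox) replicate 2. Vwf was at 8.10 and 6.26 rpkm in p53(+/+) and at 1.05 rpkm in p53(flox/flox) replicate 2. Fzd4 was above the floor in p53(M/M) too (1.64 and 1.39 rpkm), where the endothelial sum was near its floor. The defining markers Pecam1 and Kdr were at the floor in all 6 libraries. Of 10 fibroblast and smooth muscle markers, 0 were above the floor in p53(+/+) and in p53(flox/flox) replicate 1, and 1 in each p53(M/M) library. In p53(flox/flox) replicate 2 the number was 5, with the smooth muscle actin gene Acta2 at 11.5 rpkm. Col1a1, Pdgfrb, Pdgfra and Dcn were at 2.44, 1.36, 1.23 and 1.05 rpkm there. The smooth muscle genes Myh11 and Des were at the floor in all 6 libraries. The part of other cell types in the levels of Fzd1, Fzd3 and Fzd4 was not tested.

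**Figure D3:**
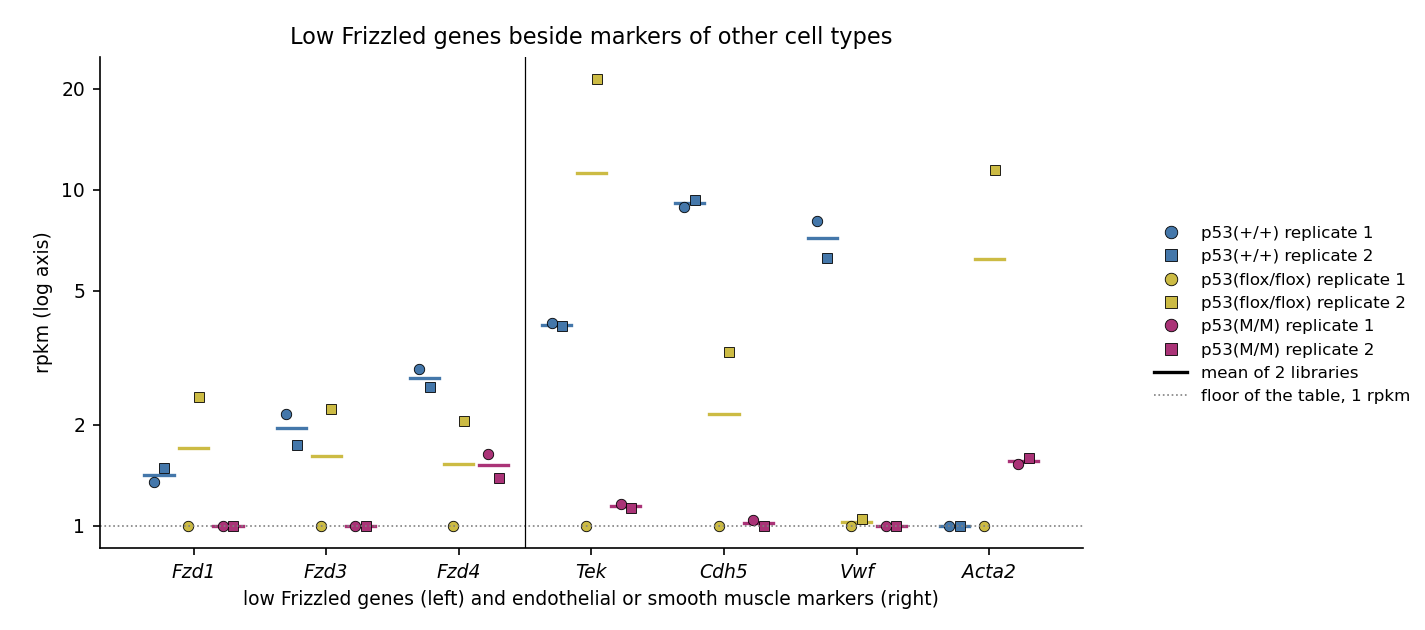
Level in rpkm on a log axis of Fzd1, Fzd3 and Fzd4 (left) and of the endothelial markers Tek, Cdh5 and Vwf and the smooth muscle marker Acta2 (right), with 1 point per library, lines at the genotype means and a dotted line at the floor. All 7 genes are at the floor in p53(flox/flox) replicate 1, and Tek and Acta2 are highest in p53(flox/flox) replicate 2, at 21.4 and 11.5 rpkm. The markers Pecam1, Kdr, Myh11 and Des, at the floor in every library, are not drawn.

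Summed over the family, Frizzled mRNA was more abundant in p53(M/M). The sum of the 10 genes, with the floor counted as 1, was 42.8 ± 0.664 rpkm in p53(+/+), 41.0 ± 6.39 rpkm in p53(flox/flox) and 55.8 ± 0.438 rpkm in p53(M/M) (SD, n = 2 each). Both p53(M/M) sums were above the other 4 libraries. With 2 libraries against 2, an exact two-sided permutation test cannot give less than p = 0.333, so the sum was not tested. Without Fzd10 the sum was 40.1 ± 0.509 rpkm in p53(+/+), 39.0 ± 7.57 in p53(flox/flox) and 37.2 ± 0.861 in p53(M/M), where the p53(flox/flox) libraries spanned both other genotypes. The share of Fzd10 in the family sum was 6.47% ± 0.261 in p53(+/+), 5.14% ± 3.66 in p53(flox/flox) and 33.3% ± 1.02 in p53(M/M). Over the same genotypes the mean share of Fzd7 was 34.7%, 37.3% and 22.8%, and that of Fzd6 was 26.3%, 24.02% and 24.4%.

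**Figure D4:**
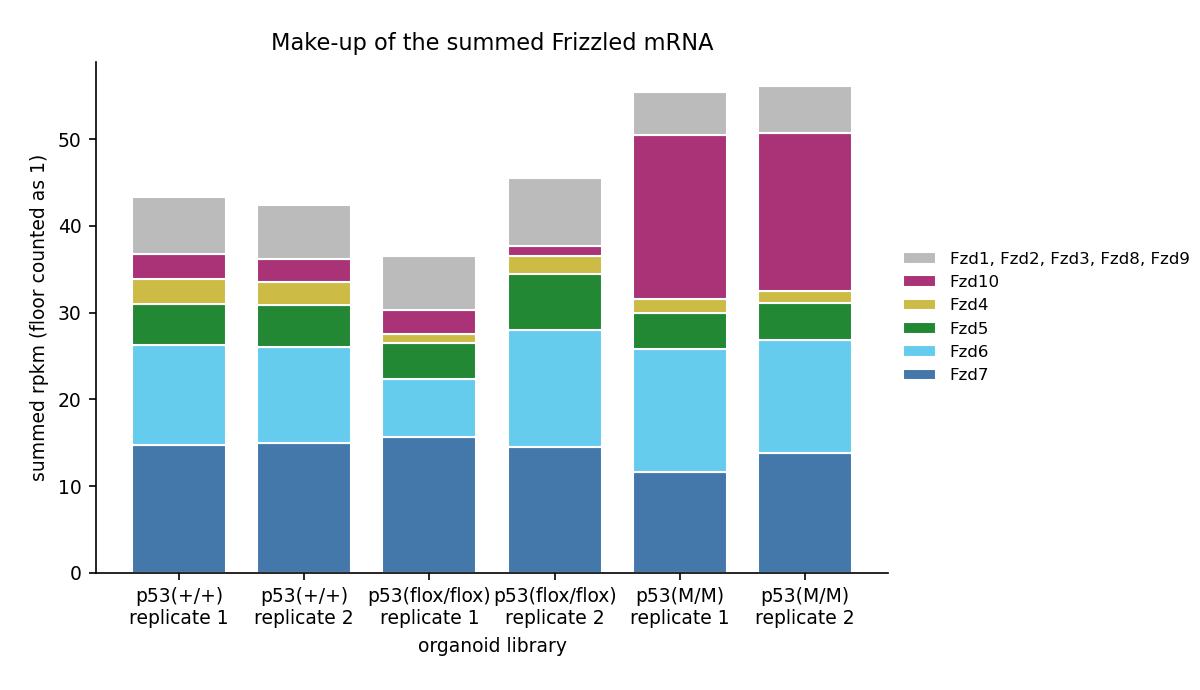
Summed rpkm of the 10 Frizzled genes in each library (horizontal axis), stacked by receptor, with genes at the floor counted as 1 rpkm. The Fzd10 segment fills 33.3% of the p53(M/M) bars on average, against 6.47% and 5.14% in p53(+/+) and p53(flox/flox).

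The genes that act with the receptors were read from the same limma fit, in 7 lists chosen by function. Between p53(M/M) and p53(+/+) 5 of the 35 tested members of these lists were called, 4 higher and 1 lower. That is 14.3%, near the 12.2% of all genes tested, so the genes named below are values and not a result about the lists. Among the co-receptors and partners, 1 of 6 was lower and 0 higher, namely Ror2, a receptor tyrosine kinase that binds Wnt5a, at 4.80 and 4.25 rpkm in p53(+/+) and 2.17 and 2.61 rpkm in p53(M/M) (log2 difference -0.71, adjusted p = 0.0369). The Wnt co-receptors did not pass, with Lrp5 at -0.20 (adjusted p = 0.553) and Lrp6 at 0.17 (adjusted p = 0.713). Smo, the Hedgehog transducer of the same receptor class, was also not called (-0.17, adjusted p = 0.343).

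Of 4 tested genes that control receptor turnover, 1 was higher. This was Znrf3, a ubiquitin ligase that removes Frizzled from the cell surface and is itself a Wnt target, at 11.6 and 10.9 rpkm in p53(+/+), 5.73 and 9.82 rpkm in p53(flox/flox), and 25.1 and 23.6 rpkm in p53(M/M). Its log2 difference between p53(M/M) and p53(+/+) was 1.05 ± 0.23 (adjusted p = 0.0490). The related ligase Rnf43 was not called, with a log2 difference of -0.34 ± 0.23 (adjusted p = 0.359). Of 6 tested antagonists 1 was called, Dkk2, which binds Lrp5 and Lrp6. The median log2 difference of the 6 was 2.13, against 0.03 over all genes. In limma 5 of 6 had an unadjusted p under 0.05, as had 3209 of all 10042 genes tested. With p53(M/M) and p53(+/+) fitted alone, all 6 were called higher, in a fit that called 5721 of the 10042 genes. Dkk2 was at 1.94 and 2.66 rpkm in p53(+/+), at the floor in both p53(flox/flox) libraries, and at 15.2 and 14.4 rpkm in p53(M/M) (log2 difference to p53(+/+) 2.27 ± 0.15, adjusted p = 0.00367).

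Among 20 ligand genes, 10 were at the floor in all libraries and 4 were tested. Wnt5b, a ligand mostly tied to beta-catenin-independent signaling, was at the floor in all p53(+/+) and p53(flox/flox) libraries and at 3.73 and 4.10 rpkm in p53(M/M). It was called higher in p53(M/M) than in p53(+/+) (adjusted p = 0.0101), and the size of its rise is set by the floor. Wnt5b, like Dkk2, reached 4 rpkm only in p53(M/M), so both entered the test only through the genotype in which they are high, and their calls carry no weight of their own. The Norrin gene Ndp was at the floor throughout. Of 10 cytoplasmic transducers 1 was called, the beta-catenin gene Ctnnb1, at 354.6 and 354.6 rpkm in p53(+/+) and 635.8 and 593.0 rpkm in p53(M/M) (log2 difference 0.79, adjusted p = 0.0174). Of 4 tested planar cell polarity genes 0 were called by limma in this comparison. An unadjusted p under 0.05 was found for 2 of them, and for 3209 of all 10042 genes tested. These 2 were Daam1 (log2 difference 0.54, adjusted p = 0.0790) and Vangl1 (-0.32, adjusted p = 0.0974).

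Against p53(flox/flox), 13 of the 35 companion genes were higher in p53(M/M) and 3 lower, where 45.7% were called in all and 24.6% of all genes tested were. Among the 13, Dkk2 and Wnt5b passed the filter only through their p53(M/M) libraries, so their calls carry no weight of their own. This also holds for Dkk2 among the antagonists. The antagonists had the largest median of the 7 lists, with 5 of 6 genes higher (Dkk2, Dkk3, Wif1, Notum and Apcdd1, named after their values were seen) and a median log2 difference of 3.09, against 0.03 over all genes. Between p53(flox/flox) and p53(+/+) 3 of 35 were called, all lower, namely Dkk2, Notum and Axin2, also named after their values were seen. That is 8.57%, against 11.3% of all genes. These counts moved with the p53(flox/flox) libraries. With p53(M/M) and p53(+/+) fitted alone, 22 of 35 were higher and 7 lower, in a fit that called 5721 of the 10042 genes, and with p53(M/M) and p53(flox/flox) fitted alone 3 of 35 were higher and 0 lower, in a fit that called 378. With p53(flox/flox) and p53(+/+) fitted alone 0 of 35 were called by limma, in a fit that called 47. There 10 of 35 had an unadjusted p under 0.05, as had 2471 of all 10042 genes. Still between p53(flox/flox) and p53(+/+), with replicate 1 or replicate 2 of p53(flox/flox) left out 15 and 27 of 35 were called, where 4166 and 6891 of all genes were called.

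The genes whose pattern over the 6 libraries was most like that of each tested receptor were found by the root mean square difference of log2(rpkm + 1), each gene centred on its own mean. For Fzd10 they were D630039A03Rik (difference 0.185), the secreted phospholipase gene Pla2g2f (0.186) and the homeobox gene Dlx3 (0.227), against a median of 1.26 over all tested genes. Pla2g2f was at 14.8 and 13.2 rpkm in p53(+/+), 14.8 and 8.79 rpkm in p53(flox/flox), and 103 and 105 rpkm in p53(M/M). Like Fzd10, these genes were highest in both p53(M/M) libraries, which follows from their choice by likeness to Fzd10. For Fzd7 the nearest genes were Ddx27, Hmg20b and Tada3 (0.0311 to 0.0400), for Fzd6 Ckap5, Man2a1 and Zfp609 (0.0381 to 0.0475), and for Fzd5 Mef2d, Sema4b and Ubap2 (0.0359 to 0.0423). The medians over all genes were 0.304, 0.422 and 0.337. A small difference is common for genes that hardly vary, so these lists describe a pattern over 6 libraries and carry no test.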

How the data were processed

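Poly(A) RNA from organoids was made into strand-specific libraries with a TruSeq kit and sequenced on a HiSeq 2500. The deposited RPKM values are those of the authors, made with StrandNGS from reads aligned to the mm10 genome. Its version and gene annotation are not given in the sources used here. No deposited value is below 1, so lower levels are unknown.

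The receptors and companion lists were chosen with earlier results of these data known. All 10 receptors are named, with Trp53, Cdkn1a and Mdm2 as a check of the labels. Companion genes are named as the up to 4 largest changes per list among those called between p53(M/M) and p53(+/+), or where a result turned on them. The 3 genes of most similar pattern are named for each tested receptor.

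A gene was kept if any library reached 4 rpkm. In limma 3.58.1 (R 4.3.3), log2(rpkm + 1) was fitted for all 6 libraries with a variance trend and two-sided tests, Benjamini-Hochberg adjusted over 10042 genes and called at 0.05. The code was tested on simulated data. Descriptions used Python 3.11.15 with pandas 2.3.3, and sequences came from the GENCODE annotation of GRCm38. Chromosomes were known for 10023 kept genes.

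Replicate numbers are from the sample titles, and the labels give no batch. Deviations of same-numbered libraries correlated at 0.12, -0.29 and -0.20, so the numbers were not taken as pairs. Alternatives were another pseudocount, filter, scaling, variance model, set of genotypes or block, and each library left out.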

Additional observations from a re-analysis of the deposited data

How the results depend on the processing

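Of 180 recomputed log2 differences of Fzd5, Fzd6, Fzd7 and Fzd10, 158 kept direction and call, 10 gained a call, 7 lost it and 5 changed sign. Many of these settings alter only the spread or the genes tested, so they could not change a direction. All 5 changes of sign were in comparisons with p53(flox/flox) when it was left with a single library. With replicate 1 and then replicate 2 of p53(flox/flox) left out, the log2 difference of p53(flox/flox) to p53(+/+) was -0.038 and 0.071 for Fzd7, 0.35 and -0.17 for Fzd5, -0.80 and 0.019 for Fzd10, and 0.25 and -0.68 for Fzd6. That of Fzd5 in p53(M/M) to p53(flox/flox) was -0.51 and 0.015.

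Genes called, in the order p53(M/M) against p53(+/+), p53(flox/flox) against p53(+/+) and p53(M/M) against p53(flox/flox), were 1227, 1133 and 2469. They were 427, 73 and 750 with no filter, 5987, 150 and 534 with genotype weights, 5721, 47 and 378 with only the genotypes compared, and 550, 280 and 1156 with a replicate block. A block with the p53(M/M) numbers exchanged, added after seeing the data, gave 941, 873 and 2276. The block changed no call of a Frizzled gene (Fzd10 between p53(M/M) and p53(+/+), adjusted p = 0.0223). Leaving out 1 library gave 0 to 5746, 8 to 6891 and 165 to 7241. The low counts came when a p53(+/+) or p53(M/M) library was left out, and the high ones when a p53(flox/flox) library was.

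Frizzled genes called between p53(M/M) and p53(+/+) were 0 with no filter, 3 with genotype weights (Fzd6, Fzd7 and Fzd10) and 2 with only the genotypes compared, and 0 to 2 in each of the 3 comparisons with 1 library left out. With the floor counted as 0, the family sum was 39.8 rpkm in p53(+/+) and 51.8 rpkm in p53(M/M), and the Fzd10 share was 6.95% and 35.9%. With median-of-ratios scaling the p53(M/M) sum was 55.3 rpkm. The floor limits what can be said of Fzd1, Fzd2, Fzd3, Fzd8 and Fzd9.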
